A study of Equus caballus with 3 samples.

Results

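The genes described here are 8 genes around the transcriptional co-activator YAP and the CCN family of secreted matrix proteins, measured in cultured mesenchymal stromal cells (MSCs) of a horse. They are the CCN genes *CTGF*, *CYR61*, *WISP1* and *WISP2*, the YAP target genes *ANKRD1* and *AMOTL2*, and the co-activator genes *YAP1* and *WWTR1*. They were chosen by name, and all 8 were found among the 29927 genes of the deposited matrices. In newer naming *CYR61* is *CCN1*, *CTGF* is *CCN2*, *WISP1* is *CCN4* and *WISP2* is *CCN5*. On EquCab3.0 the files place *CTGF* on chromosome 10, *CYR61* on 5, *WISP1* on 9, *WISP2* on 22, *ANKRD1* on 1, *AMOTL2* and *WWTR1* on 16 and *YAP1* on 7. The cells came from a single healthy Warmblood mare aged 10 years and were grown from fat (adipose tissue, AT), marrow (BM) and circulating blood (PB). Each source gave 1 droplet single-cell RNA sequencing (scRNA-seq) library, in which a barcode marks the cell and a unique molecular identifier (UMI) marks the molecule. The labels name no agent or genetic change, and the source follows the sample titles, because the source name deposited with all 3 samples is that of blood mononuclear cells. A difference between sources is therefore also a difference between 3 libraries of a single animal, and no test, p-value or standard error was possible.

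YAP and its relative TAZ, the product of *WWTR1*, carry no DNA-binding domain and act in the nucleus by binding TEAD factors. The kinases of the Hippo pathway phosphorylate them and hold them in the cytoplasm, whereas cell spreading, a stiff substrate and a tense actin cytoskeleton favour their entry into the nucleus. CCN proteins are secreted, bind integrins and matrix, and are known in stromal cells for roles in adhesion, migration, matrix production and fibrosis. UMI counts of mRNA measure neither where YAP and TAZ lie nor how much CCN protein was secreted.

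Barcodes were kept if they held 2500 to 15000 UMIs, of which no more than 3% were mitochondrial. This left 5403 AT-, 5580 BM- and 5318 PB-derived MSCs with 39980656 to 41622445 UMIs per source. Median depths were 7291, 6874.5 and 7750 UMIs per cell. A gene's level is its summed UMIs over the kept cells in CPM, relative to all UMIs of those cells, and a difference between sources is a difference of log2(CPM + 1), with exact 95% Poisson bounds that cover counting error only. Of 6 stromal markers 5 were above a mean of 1 CPM, and *NT5E* was close to 0 with 9, 30 and 43 UMIs in AT, BM and PB. The leukocyte marker *PTPRC* had 0 UMIs in each source, which allows up to 0.0750, 0.0746 and 0.0721 CPM, and 0 of 6 measured endothelial markers reached a mean of 1 CPM. The macrophage marker *CD68* was at 4.85 to 11.03 CPM. The AT matrix held all 5318 kept PB barcodes, of which 37 were also kept in AT. Without the kept barcodes that another library also kept, 5327 AT cells remained. The *CTGF* difference was then 3.997 for BM over AT and 1.813 for PB over AT, against 3.990 and 1.801 with them. The other shared PB barcodes were already outside the kept AT cells, so this comparison says nothing about them. Why the AT matrix held them was not tested.

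*CTGF*, which encodes a CCN protein known as a profibrotic effector of TGF-beta and YAP, was far higher in BM- than in AT-derived MSCs, with PB between them. Its 464 AT, 8019 BM and 1787 PB UMIs gave a level of 11.6 CPM in AT (counting interval 10.6 to 12.7), one of 199 CPM in BM (195 to 204) and one of 42.9 CPM in PB (41.0 to 45.0). No 2 of these intervals overlapped. BM-derived MSCs thus had 17.2-fold the CPM of AT and 4.64-fold that of PB, and PB had 3.70-fold that of AT. On the log2 scale BM exceeded AT by 3.99 (counting bounds 3.84 to 4.14) and PB by 2.19 (2.09 to 2.29). Cells with a *CTGF* UMI made up 6.85% of the AT library, 51.7% of the BM library and 19.4% of the PB library. After each cell had been thinned to 2500 UMIs the shares were 2.41%, 30.8% and 8.20%, in the same order. The cultures held no cells known to lack these genes, so a background share from free RNA could not be set beside this or any later share.

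*CYR61*, another CCN gene and a standard readout of YAP activity that codes for an integrin ligand, differed less between sources and was detected in most cells of each. Its level was 304 CPM (AT), 660.1 CPM (BM) and 477 CPM (PB), and the 3 intervals lay apart. The sources therefore had the same order as for *CTGF*, with 2.17-fold more in BM than in AT. The share of cells with a UMI was 67.9%, 82.7% and 78.2%, and at 2500 UMIs per cell in 43.3%, 65.1% and 55.0%. The log2 difference of BM over AT was 1.12 (counting bounds 1.07 to 1.16), and that of PB over AT was 0.65 (0.61 to 0.70).

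*WISP2*, the CCN gene whose protein lacks the C-terminal domain of its relatives, was highest in AT, with BM again above PB. AT stood at 620.6 CPM, BM at 226 CPM and PB at 61.0 CPM, with intervals apart. AT-derived MSCs had 2.75-fold the CPM of BM and 10.2-fold that of PB. UMIs were present in 90.9%, 59.5% and 31.0% of cells, and in 71.4%, 35.0% and 13.3% at equal depth. AT was thus high, BM intermediate and PB low in both the level and the share of cells.

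*WISP1*, named like *WISP2* for induction by WNT1, was low in all sources. Its 275, 725 and 679 UMIs gave 6.88 CPM (AT), 18.0 CPM (BM) and 16.3 CPM (PB). AT was the low source, and the intervals of BM and PB overlapped, with a log2 difference of 0.14 (counting bounds -0.07 to 0.34). Its UMIs were present in 4.94%, 11.3% and 11.7% of cells. The remaining CCN genes were close to absent from the counts, with 18, 42 and 5 UMIs of *NOV* and 0 of *WISP3* in each source.

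*ANKRD1*, a YAP target that encodes a sarcomere-associated ankyrin repeat protein, was nearly absent from the PB library. The 3 libraries held 662 (AT), 353 (BM) and 18 (PB) of its UMIs, or 16.6, 8.77 and 0.432 CPM. The few PB counts lay in 14 of 5318 cells. BM had 20.3-fold and AT 38.3-fold the CPM of PB, and the log2 difference of PB over AT was -3.62 (counting bounds -3.91 to -3.28) but, with a pseudocount of 25 CPM in place of 1, -0.71. In AT and BM the UMIs were held by few cells, 6.05% and 3.23%, and 14 UMIs was the highest count of a single cell in each.

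*AMOTL2*, which encodes a junctional scaffold that binds YAP and is itself a YAP target, stood at 127 CPM (AT), 107 CPM (BM) and 62.9 CPM (PB). The PB level was below both others, and the intervals of AT and BM also lay apart although their log2 difference was only -0.25. UMIs were found in 55.7%, 46.6% and 33.5% of cells. The log2 difference of PB over AT was -1.002 (counting bounds -1.10 to -0.91), which lies at the 2-fold limit itself.

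The co-activator genes were higher in BM and PB than in AT. *YAP1* had 30.9 CPM (AT), 69.1 CPM (BM) and 46.7 CPM (PB), with intervals apart and UMIs in 20.04%, 38.0% and 30.1% of cells. Its order of sources was that of *CTGF* and *CYR61*. *WWTR1* had 5.10, 7.60 and 9.11 CPM and UMIs in 3.66%, 5.27% and 6.88% of cells. AT was again the low source, while the intervals of BM and PB overlapped.

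**Figure D1:**
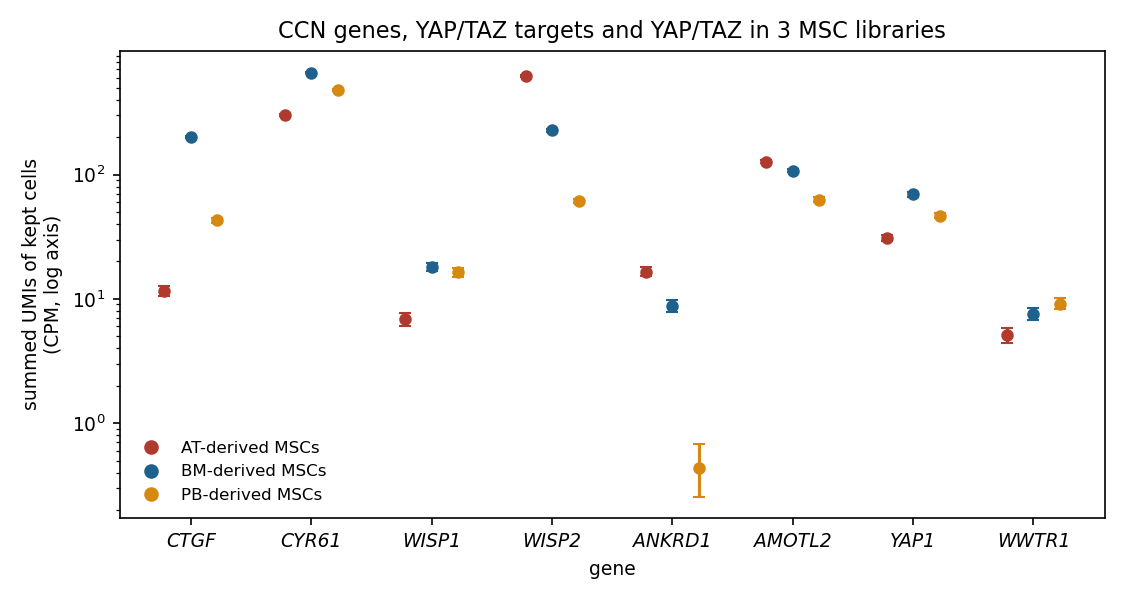
Summed UMIs of each of the 8 genes in the kept cells of the AT, BM and PB libraries, in CPM on a log axis, with exact 95% Poisson intervals that cover counting error only. *CTGF* runs from 11.6 CPM in AT to 199 CPM in BM, *WISP2* from 61.0 CPM in PB to 620.6 CPM in AT, and *ANKRD1* is at 0.432 CPM in PB.

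Across all 11479 genes with a mean of at least 1 CPM, 11% differed at least 2-fold between BM and AT, 10.4% between PB and AT and 8.27% between BM and PB. Without that minimum, over all 19625 genes with a UMI, the shares were 7.03%, 6.68% and 5.28%. Of the 8 genes, 5 differed at least 2-fold between BM and AT, with *CTGF*, *WISP1*, *YAP1* and *CYR61* higher and *WISP2* lower in BM. Between PB and AT 5 differed, with *CTGF* and *WISP1* higher and *ANKRD1*, *WISP2* and *AMOTL2* lower in PB. Between BM and PB there were 3, *ANKRD1*, *CTGF* and *WISP2*, all higher in BM. In the direction of the calls, 8.45% of all genes were higher and 2.57% lower in BM than in AT, 5.98% higher and 4.42% lower in PB than in AT, and 5.94% higher in BM than in PB. The median log2 difference of the 8 genes was 0.81, 0.62 and 0.66 for BM over AT, PB over AT and BM over PB, and that of all genes was 0.24, 0.04 and 0.20. These comparisons share libraries pairwise, and the 8 genes are too few for their shares to be more than a description.

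**Figure D2:**
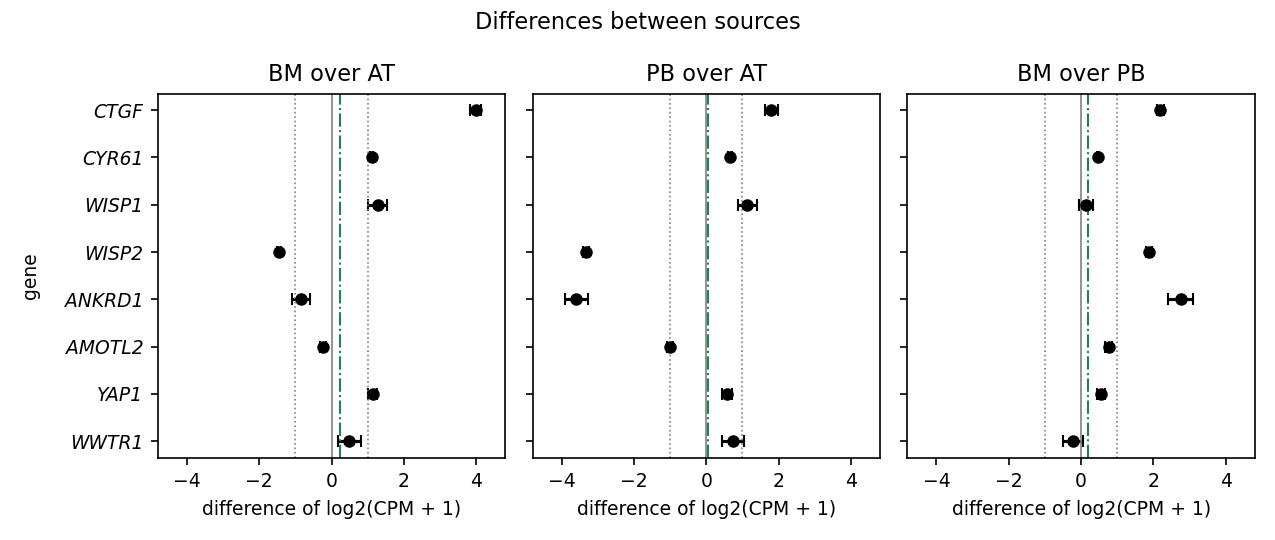
Differences of log2(CPM + 1) of the 8 genes for BM over AT, PB over AT and BM over PB, with bounds from exact 95% Poisson intervals. Dotted lines mark 2-fold and the dash-dotted line marks the median of all 11479 genes, 0.24, 0.04 and 0.20. *CTGF* is right of the 2-fold line in each panel, and *WISP2* lies left of it in the panels against AT.

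Some calls rested on the scaling. TMM factors moved the median of all genes from 0.24 to -0.01 for BM over AT, and with them *CYR61* and *YAP1* exceeded AT by 0.84 and 0.86 on the log2 scale, under 2-fold. *ANKRD1* then passed 2-fold on the lower side (-1.10), so that 2 of the 8 genes were higher and 2 lower in BM with TMM, and likewise with median-of-ratios factors, in place of 4 and 1.

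Other targets of YAP and TAZ were mixed. Of 18 listed genes 17 were in the matrices and 15 reached a mean of 1 CPM, and 5 of these were at least 2-fold higher and 1 lower in BM than in AT. The higher ones were *TGFB2*, *ASAP1*, *NUAK2*, *CRIM1* and *PTPN14*, and the lower one was *CCDC80*. With TMM or median-of-ratios factors 2 were higher and 1 lower. In PB against AT 3 were higher (*TGFB2*, *ASAP1* and *PTPN14*) and 3 lower (*IGFBP3*, *CCDC80* and *FJX1*). Between BM and PB 4 were higher in BM, *IGFBP3*, *NUAK2*, *CRIM1* and *FJX1*, and 0 were lower. The names of genes below 20 CPM were added after their values were seen. *CCDC80*, a matrix protein gene, had 517 CPM (AT), 152 CPM (BM) and 129 CPM (PB), so AT was the high source as for *WISP2*. *ASAP1*, which encodes a regulator of ARF GTPases at focal adhesions, had 14.4, 53.5 and 41.3 CPM, with AT low. *CRIM1*, whose transmembrane product binds BMPs, had 9.88, 22.4 and 6.66 CPM and was highest in BM. *MYOF* (80.9, 142 and 113 CPM) and *F3*, the tissue factor gene (43.5, 58.5 and 37.6 CPM), stayed within 2-fold. The medians of the list were 0.55, -0.09 and 0.33 for BM over AT, PB over AT and BM over PB. Of all genes, 11%, 10.4% and 8.27% differed at least 2-fold in these comparisons.

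The upstream genes were counted in the same way. Of 16 genes of Hippo kinases and their adaptors, *MAP4K4* and *WWC3* were at least 2-fold higher in BM than in AT and 0 were lower, while 11% of all genes differed in either direction. *MAP4K4*, which encodes a kinase that can activate LATS kinases, had 79.4, 215 and 83.1 CPM in AT, BM and PB, so that BM stood apart from both others. Between PB and AT 0 of the 16 passed 2-fold, and between BM and PB only *MAP4K4* did, against 10.4% and 8.27% of all genes. *FRMD6*, *STK3*, *MOB1A* and *TAOK3* stayed within 2-fold in each comparison. Among 13 partners of YAP and TAZ, *AMOTL1*, a paralog of *AMOTL2*, had 3.602, 15.6 and 29.6 CPM, and its order of sources was the reverse of that of *AMOTL2*. *TEAD2*, which encodes a DNA-binding partner, had 26.9, 60.2 and 36.0 CPM and followed the order of *YAP1*. In all, 3 partners were higher (*AMOTL1*, *TEAD2* and *PTPN14*) and 1 lower (*VGLL3*) in BM than in AT. In PB against AT 2 were higher (*AMOTL1* and *PTPN14*) and *VGLL3* was lower, and between BM and PB 0 passed 2-fold. *TEAD4*, *AJUBA* and *VGLL4* stayed within 2-fold. The log2 differences of BM over AT were close to the 2-fold limit for *TEAD2* (1.13), *PTPN14* (1.10) and *WWC3* (1.02). For comparison, TMM factors lowered *YAP1* in that pair from 1.14 to 0.86. TMM and median-of-ratios factors scale all genes of a source alike, so *TEAD2*, *PTPN14* and *WWC3* also fall under 2-fold with them. Beyond the 8 genes and the other YAP and TAZ targets, no list was recounted with these factors. The counts of the other lists, here and below, are therefore those without a scaling that lowers all BM levels against AT. Of 7 CCN receptor genes above 1 CPM among 11 listed, the integrin gene *ITGB5* was higher in BM than in AT (28.4, 73.2 and 47.0 CPM), *ITGA6* was higher in BM than in PB, and 0 differed between PB and AT.

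Lists of other programs that can act on the same genes were also counted. Of all genes with a mean of at least 1 CPM, 8.45% were higher and 2.57% lower in BM than in AT. In PB against AT these shares were 5.98% and 4.42%, and in BM against PB 5.94% and 2.33%. Of 12 TGF-beta responsive genes, 3 were higher and 2 lower in BM than in AT, 3 higher and 2 lower in PB than in AT, and 1 higher and 2 lower in BM than in PB. *SMAD7*, an inhibitor induced by TGF-beta, had 7.33, 30.3 and 18.9 CPM in AT, BM and PB, the order of *CTGF*. *THBS1*, a matricellular protein gene, had 520 CPM (AT), 386 CPM (BM) and 90.0 CPM (PB), the order of *AMOTL2*. Of 13 immediate early genes, 4 were higher and 0 lower both in BM and in PB than in AT, and 2 were higher and 2 lower in BM than in PB. *IER3*, an early response gene, had 67.7, 219 and 229.9 CPM, and *JUN*, an AP-1 subunit gene, had 40.7, 91.7 and 48.0 CPM. Of 12 WNT target genes only 6 were above 1 CPM, of which 4 were higher and 0 lower in BM than in AT, 4 higher and 1 lower in PB than in AT, and 1 higher and 3 lower in BM than in PB. *TCF7*, a WNT-responsive transcription factor gene, had 1.0005, 15.4 and 56.2 CPM, with AT low. *DKK1*, which encodes a secreted WNT antagonist, had 11.2, 23.6 and 3.12 CPM, with PB low.

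Contractile genes are targets of SRF and its actin-regulated co-activators and are commonly measured beside YAP targets. Of 17 listed genes 1 was higher and 2 lower in BM than in AT, 0 higher and 6 lower in PB than in AT, and 6 higher and 0 lower in BM than in PB. *VCL*, which encodes a focal adhesion protein, was the higher one in BM (254, 646 and 304 CPM in AT, BM and PB). *DES* had 204, 5.04 and 0.288 CPM and *ACTG2*, a smooth muscle actin gene, 422, 184 and 52.4 CPM, so both followed the order of *ANKRD1*. *CNN1* had 106, 162 and 33.1 CPM, and *MYLK* had 12.4, 22.7 and 1.44 CPM, with BM highest and PB lowest. Of all genes, 8.45% were higher and 2.57% lower in BM than in AT. In PB against AT these shares were 5.98% and 4.42%, and in BM against PB 5.94% and 2.33%.

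Within each source, cells were then ranked by their UMIs of the contractile list after thinning to 2500 UMIs and cut into quintiles. The median cell of the lowest and of the highest quintile had 6 and 42 list UMIs in AT, 11 and 43 in BM and 8 and 29 in PB. *CYR61* was higher from each quintile to the next in each source, from 204 to 470 CPM in AT, from 402 to 931.5 CPM in BM and from 312 to 636 CPM in PB. *CTGF* did the same in BM, from 116 to 328 CPM, and in PB, from 23.3 to 61.0 CPM. In AT *CTGF* went from 6.29 CPM in the lowest to 14.8 CPM in the next to highest quintile, with intervals apart, and was at 12.2 CPM in the highest. The AT cells with most contractile UMIs were thus still far below the BM cells with fewest. *ANKRD1* was concentrated in the highest quintile, at 47.8 CPM against 5.55 CPM in the lowest quintile of AT and at 20.1 against 2.87 CPM in BM. *AMOTL2* went from 98.1 to 165 CPM in AT, from 81.4 to 161 CPM in BM and from 41.4 to 74.5 CPM in PB. *WISP2* went from 458 to 774 CPM in AT, from 198 to 255 CPM in BM and from 48.5 to 81.7 CPM in PB. *YAP1* was close to level, at 27.0 and 31.1 CPM in AT, 66.7 and 69.9 CPM in BM and 47.4 and 45.5 CPM in PB. These values are a description over cells of 1 library each, and cells also share cluster and cell cycle phase.

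**Figure D3:**
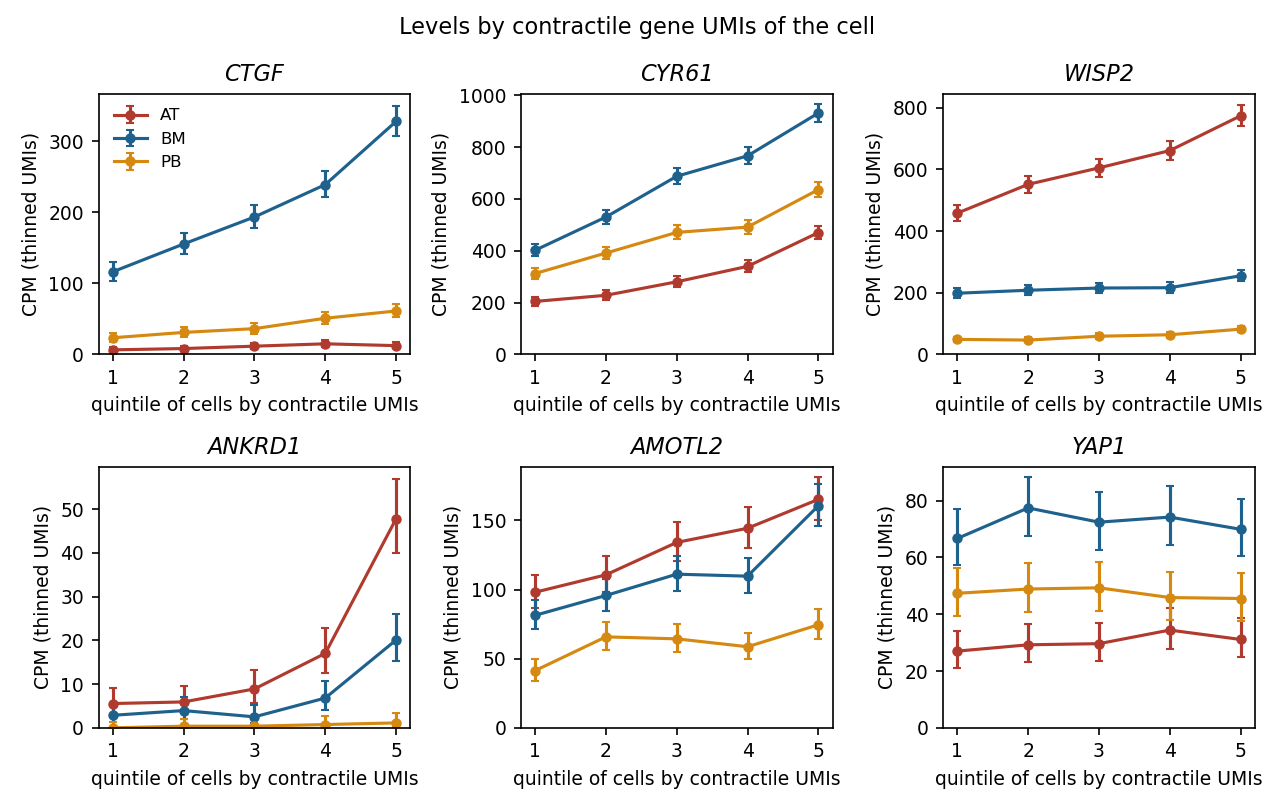
Levels of 6 genes (CPM of thinned UMIs, exact 95% Poisson intervals) in quintiles of the cells of each source, ordered on the x axis by the UMIs of 17 contractile genes per cell. *CYR61* climbs in each source, *CTGF* in BM (116 to 328 CPM) and PB (23.3 to 61.0 CPM) and over the first 4 quintiles of AT, *ANKRD1* mainly in the last quintile of AT and BM, and *YAP1* stays level.

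The 2 CCN genes *CTGF* and *CYR61* were also high in the same cells. In BM-derived MSCs with 0, 1, 2 to 4 and 5 or more thinned *CYR61* UMIs, *CTGF* was at 117, 187, 265 and 408 CPM. In PB the same 4 classes had 23.1, 39.6, 62.8 and 96.5 CPM, and in AT 7.18, 11.1, 19.4 and 32.0 CPM, the last from only 6 UMIs. *CTGF* thus increased with *CYR61* in each source, and AT cells with 5 or more *CYR61* UMIs had a *CTGF* level below that of BM cells without a *CYR61* UMI. *AMOTL2* increased with *CYR61* in BM, from 78.2 to 180.2 CPM, and in PB, from 43.3 to 107 CPM. In AT the classes had 126, 130, 147 and 123 CPM of *AMOTL2*, the last from only 23 UMIs, and their intervals overlapped. *WISP2* went from 190.3 to 255 CPM in BM, from 603 to 752 CPM in AT and from 55.2 to 82.4 CPM in PB, a smaller relative span than that of *CTGF* in each source. Across cells the Pearson correlation of log(thinned UMIs + 1) of *CTGF* and *CYR61* was 0.08 in AT, 0.22 in BM and 0.14 in PB. It was taken over 5403, 5580 and 5318 cells that share a library and a depth of 2500 UMIs.

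**Figure D4:**
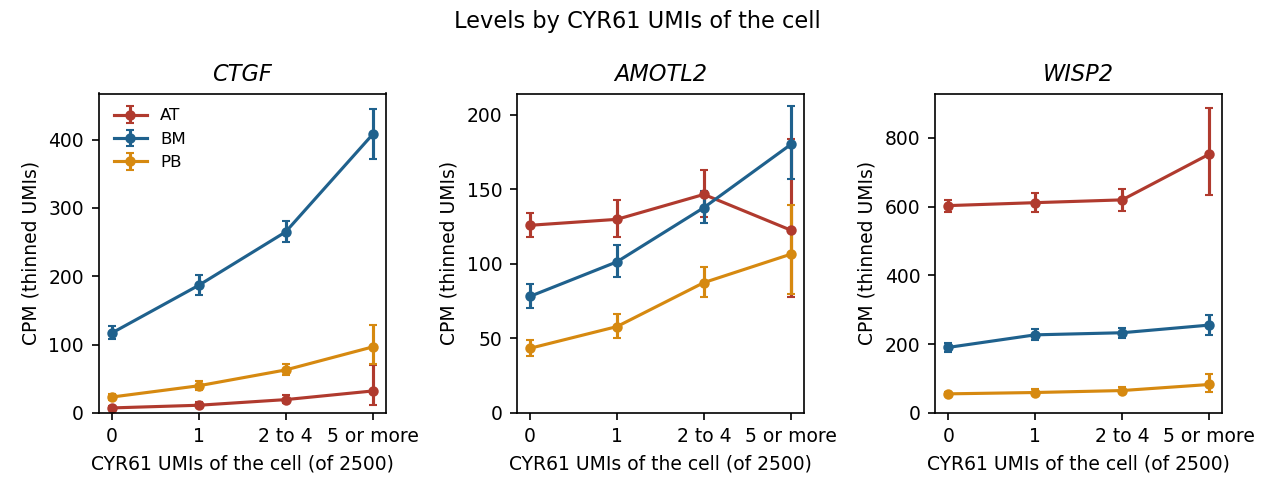
Levels of *CTGF*, *AMOTL2* and *WISP2* (CPM of thinned UMIs, exact 95% Poisson intervals) in cells of each source grouped on the x axis by their number of *CYR61* UMIs among 2500. *CTGF* goes from 117 to 408 CPM in BM and from 23.1 to 96.5 CPM in PB, whereas *WISP2* differs more between sources than between the groups of a source.

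The counts of *CTGF* and *CYR61* were uneven over cells. At 2500 UMIs per cell the variance of *CYR61* was 2.33 times its mean in BM, with up to 20 UMIs in a cell, and that of *CTGF* was 1.94 times its mean. The 10% of BM-derived MSCs with most *CTGF* UMIs held 56.5% of them. *WISP2* in BM, at a mean close to that of *CTGF* (0.546 against 0.515 UMIs per cell), had a ratio of 1.63, and the top 10% of cells held 50.5%. In AT and PB its ratios were 1.45 and 1.10, and those of *CYR61* were 1.81 and 1.92. *YAP1* in BM, with a ratio of 1.02 of variance to mean, was close to the value of 1 that counting alone gives. Its mean was only 0.180 UMIs per cell, against 1.66 for *CYR61* in BM. The ratio depends on the mean, so at unlike means these ratios do not rank the genes by unevenness.

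Each source was clustered on its own, with the 8 genes removed from the variable genes, which gave 7 AT, 7 BM and 10 PB clusters. The clusters come from the same cells, so their values are a description. In AT, a cluster of 1058 cells led by *DES*, *ACTG2*, *CNN1* and *ACTA2* had 18571 CPM summed over the contractile list, against 4222 to 7701 CPM in the other AT clusters. *ANKRD1* was at 46.5 CPM there, and this cluster held 388 of the 662 *ANKRD1* UMIs of AT, or 58.6%. *CYR61* (479 CPM), *AMOTL2* (162 CPM) and *WISP2* (798 CPM) had their highest AT level in the same cluster. *CTGF* was at 14.8 CPM in it, and its highest AT level was 19.2 CPM in a cluster of 413 cells that were all called S or G2M. Even the highest AT cluster was therefore below the lowest BM cluster for *CTGF*. *WISP2* was at 327 CPM in those cycling cells, its lowest in AT. The shared AT peak of *CYR61*, *AMOTL2* and *WISP2* depended on the clustering. Under log normalization their peaks fell in separate clusters (488, 167 and 790 CPM). In the other alternative clusterings they fell in the same cluster.

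In BM, a cluster of 650 cells differed from the rest in most of the 8 genes. It was led by *CALCA*, *EMB*, *IGFBP5* and *HMX2*, had 30.3 CPM of the adhesion gene *JAM2* against 399 to 906 CPM in the other BM clusters, and 89.8% of its cells were called S or G2M. *CTGF* was at 42.7 CPM in this cluster and at 227 CPM in the remaining 4930 BM-derived MSCs. *WISP1* was at 5.06 against 20.3 CPM, *CYR61* at 464 against 695 CPM, *WISP2* at 143 against 241 CPM and *YAP1* at 47.9 against 72.9 CPM. The YAP targets outside the CCN family went the other way, with *ANKRD1* at 33.9 against 4.25 CPM and *AMOTL2* at 145 against 100.2 CPM. Among G1 cells, 66 in the cluster and 3684 outside it, *WISP2* was at 279 against 260 CPM and *YAP1* at 76.4 against 75.7 CPM. *WISP1* was at 14.9 against 20.8 CPM there, with overlapping intervals for all of these. In G1 *CTGF* (66.4 against 238 CPM) and *CYR61* (560 against 722 CPM) stayed lower, with intervals apart. *ANKRD1* (59.8 against 3.49 CPM) and *AMOTL2* (166 against 103 CPM) stayed higher, also with intervals apart. *WWTR1* was at 8.64 against 7.42 CPM over all phases, with overlapping intervals. In G1 it was at 18.3 CPM, from only 11 UMIs, against 7.67 CPM, with intervals apart. The cluster held 208 of the 353 *ANKRD1* UMIs of BM, or 58.9%. *ACTG2* was at 632 CPM in it and at 25.7 to 251 CPM in the other BM clusters. Without these cells, a comparison added after the data were seen, the log2 difference of BM over AT was 4.18 for *CTGF* and -1.74 for *ANKRD1*, against 3.99 and -0.85 with them, and that of *ANKRD1* for BM over PB was 1.87 against 2.77. Of the other YAP and TAZ targets, 4 were then higher and 2 lower in BM than in AT, in place of 5 and 1, and 3 in place of 4 were higher in BM than in PB. *IGFBP3*, one of those targets, was at 49.1 CPM in this cluster and at 0.44 CPM in the rest of BM.

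Among the other BM clusters *CTGF* and *WISP2* peaked apart. *CTGF* was highest, at 282 CPM, in a cluster of 1540 cells led by *VCAN*, *COL11A1* and *TAGLN3*, where *WISP2* was at 159 CPM. *WISP2* was highest, at 392 CPM, in a cluster of 1566 cells led by *C15H2orf40* and *CDC42EP3*, which also had the highest *CYR61* (846 CPM) and 179 CPM of *CTGF*. The place of the *CYR61* peak depended on the clustering. It fell with that of *CTGF* under log normalization (862 and 339 CPM) and without cell cycle regression (884 and 352 CPM). In the other alternative clusterings it fell with that of *WISP2*. A cluster of 655 cells led by genes that include *LENEP* and *CTSK* had the lowest *CYR61* (368 CPM) and *AMOTL2* (58.3 CPM) of BM. Its contractile sum of 6588 CPM was also the lowest. The shared low of *CYR61* and *AMOTL2* depended on the clustering. At resolution 0.4, under log normalization and with the studied genes kept among the variable genes, their lows fell in separate clusters. *CYR61* was then lowest (464, 465 and 465 CPM) in the cluster with the lowest *CTGF*. In the other alternative clusterings the lows of *CYR61* and *AMOTL2* fell in the same cluster. In PB, *CTGF* was highest in a cluster of 394 cells of which 95.9% were called S or G2M, at 116 CPM, and this cluster held 484 of the 1787 *CTGF* UMIs of PB. The same cells had the highest *CYR61* (699 CPM) and *AMOTL2* (89.3 CPM) of PB, and 338 CPM of *ACTG2* against 9.004 to 45.5 CPM in the other PB clusters. These peaks did not coincide in every alternative clustering. Another PB cluster than that of *CTGF* was highest for *CYR61* without cell cycle regression (643 CPM) and for *AMOTL2* at resolution 0.8 (90.2 CPM). A PB cluster of 398 cells led by *CCL2* and *CCL7* had 70.6 CPM of *CTGF*, and the lowest level was 19.9 CPM.

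**Figure D5:**
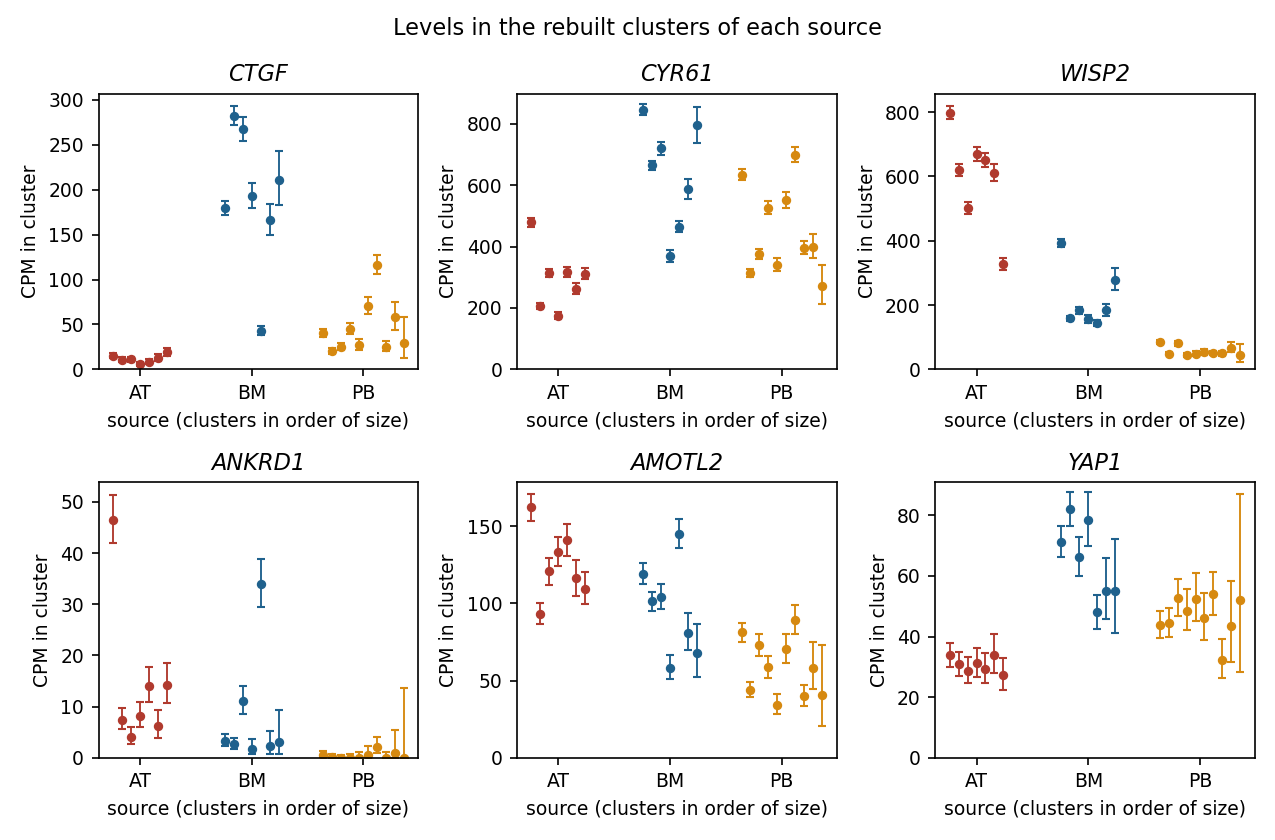
Levels of 6 genes in each rebuilt cluster (CPM, exact 95% Poisson intervals), with the clusters of AT, BM and PB in order of size. *CTGF* is at most 19.2 CPM in AT clusters, and a single BM cluster, at 42.7 CPM, lies below the other BM clusters. That cluster and the largest AT cluster have the highest *ANKRD1*, 33.9 and 46.5 CPM.

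The span of a gene over clusters was wide for *CTGF* and narrow for *YAP1*. Spans were taken over clusters of at least 50 cells, which left out a PB cluster of 37 cells. That cluster had the lowest *CYR61* (271 CPM) and *WISP2* (44.5 CPM, from 12 UMIs) of PB. For both genes its interval overlapped that of another PB cluster. On the log2 scale the highest and the lowest of the clusters used differed by 1.61, 2.70 and 2.49 for *CTGF* in AT, BM and PB. They differed by 1.45, 1.20 and 1.15 for *CYR61*, by 1.28, 1.45 and 0.90 for *WISP2*, and by 0.79, 1.30 and 1.35 for *AMOTL2*. For *YAP1* the spans were 0.30, 0.76 and 0.72. In AT the span of *CTGF* rests on 32 UMIs in the lowest cluster.

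Levels also differed by cell cycle phase, which was called from S and G2M genes. In BM, *CTGF* was at 233 CPM in G1, 193 CPM in S and 74.7 CPM in G2M. Outside the cluster with low *JAM2* the values were 238, 258 and 111 CPM, and inside it 66.4, 52.6 and 28.6 CPM, so G2M was the lowest phase in both. In AT *CTGF* was also lowest in G2M, at 5.39 CPM against 11.2 CPM in G1 and 16.3 CPM in S. In PB it was at 37.8, 51.3 and 49.7 CPM in G1, S and G2M. *CYR61* in G1, S and G2M was at 309, 328 and 245 CPM in AT. It was at 719, 696 and 388 CPM in BM and at 472, 504 and 458 CPM in PB. The share of cells called G1 was 59.2%, 67.2% and 60.2% in AT, BM and PB, and in G1 cells alone the log2 difference of BM over AT was 4.26 for *CTGF* and -1.77 for *ANKRD1*.

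For the 5 genes that reached 25 CPM in some source, those most like them were sought among 4485 genes over 23 clusters of at least 50 cells, as the Pearson correlation of log2(CPM + 1) after subtraction of each source's mean. The clusters share libraries and cells of a phase, so these values are a description. Nearest to *CTGF* were *CCL26* (0.80), *AKAP12* (0.78), *CCL2* (0.78) and *CYSTM1* (0.77) beside an unnamed gene (ENSECAG00000003055, 0.80). *CCL26* and *CCL2* encode chemokines and *AKAP12* encodes a kinase anchoring protein. Nearest to *CYR61* were *ILK*, the integrin-linked kinase gene (0.83), the secreted protein gene *CTHRC1* (0.81), *SPRYD7* (0.79), the smooth muscle actin gene *ACTA2* (0.78) and *C2H4orf3* (0.78). For *AMOTL2* they were the myosin gene *MYO1C* (0.87), *THBS1* (0.86), *ARHGAP29* (0.84), *PRKCI* (0.82) and *SSR3* (0.81). *WISP2* was most like the small heat shock protein gene *CRYAB* (0.83), the proteoglycan gene *OGN* (0.82), ENSECAG00000028281 (0.82), *PPM1K* (0.70) and the collagen gene *COL1A1* (0.69). For *YAP1* they were ENSECAG00000033153 (0.85), *DOCK6* (0.84), ENSECAG00000039232 (0.83), *RPS6KC1* (0.80) and the amino acid transporter gene *SLC38A2* (0.80). Among the 5 genes themselves, *CTGF* and *CYR61* had 0.61, *CYR61* and *AMOTL2* 0.53, *CTGF* and *YAP1* 0.45, and *AMOTL2* and *CTGF* 0.10. *YAP1* had 0.09 with *CYR61*, 0.09 with *AMOTL2* and 0.16 with *WISP2*. *WISP2* had 0.32 with *CYR61*, 0.29 with *AMOTL2* and 5.5e-05 with *CTGF*.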

How the data were processed

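The authors aligned the reads to EquCab3.0 with Cell Ranger, counted UMIs per gene with ESAT and deposited whole-number counts per gene and barcode without normalization. Chromosome MT defined mitochondrial UMIs. The study's multiplet caller was not run here. CPM, differences of log2(CPM + 1) with a pseudocount of 1 CPM, exact Poisson and Clopper-Pearson 95% intervals (SciPy 1.17.1) and thinning to 2500 UMIs without replacement were computed from the kept cells. R 4.3.3 with Seurat 5.3.0 (sctransform 0.4.2) clustered each source on 3000 variable genes at resolution 0.6. AT took 14 principal components, BM 23 and PB 20. The mitochondrial percentage and the G2M minus S score were regressed. Of 43 S and 54 G2M genes, 40 and 52 were found. Factors came from edgeR 4.0.16 (TMM) and DESeq2 1.42.0, and doublet scores from Scanpy 1.11.5. The arithmetic was tested on simulated data.

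The genes, lists and alternatives were chosen with earlier results of these data known. Named from each list were up to 5 genes with the largest difference in any pair where a source reached 20 CPM. The likeness list held the 5 most correlated genes. Alternatives were other depth, mitochondrial and doublet limits, shared barcodes left out, thinning, other factors, another pseudocount, means over cells and G1 cells alone. A few genes of the lists and clusters are not reported here.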

Additional observations from a re-analysis of the deposited data

How the results depend on the processing

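For each of 24 differences (8 genes, 3 pairs of sources) 12 alternatives were computed, 11 of them planned. Of the 13 differences of at least 2-fold, each kept its direction, and 16 of their 156 alternative values fell under 2-fold. For PB over AT the alternative without a BM cluster repeats the main value, so those values could not change. A lower limit of 500 UMIs raised the AT barcodes from 5403 to 10493, in a matrix that also holds PB barcodes. With a pseudocount of 25 CPM in place of 1, which shrinks low genes, 3 of the 8 genes passed 2-fold between BM and AT (2 higher, 1 lower), 1 between PB and AT and 2 between BM and PB, and, among other YAP and TAZ targets, 1, 1 and 0 for BM over AT, PB over AT and BM over PB. *ANKRD1* then went from -3.62 to -0.71 in PB over AT and from 2.77 to 0.41 in BM over PB. With TMM or median-of-ratios factors, which lower all BM levels against AT, 3 other targets passed in BM over AT (2 higher, 1 lower). *AMOTL2* in PB over AT ranged from -1.09 to -0.79. *ANKRD1* in BM over AT, at -0.85 and so not called, passed 2-fold in 7 of the 12 alternatives and ranged from -1.77 (G1 cells) to -0.30. *WISP1* in BM over PB changed sign with TMM (-0.09) and median-of-ratios factors (-0.08). *CTGF* in BM over AT ranged from 2.62 (pseudocount of 25 CPM) to 4.26. Of 75 alternative spans over clusters 2 moved by more than the margin used, *CTGF* in AT from 1.61 to 2.65 without cell cycle regression and *WISP2* in BM from 1.45 to 2.11 at resolution 0.8. Their cause was not tested. With 3 UMIs per source as the limit, levels under about 0.0750 CPM could not be told from 0. No paired analysis was possible because each source had 1 library. No library could be left out, because that would leave a source without one.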
